A study of Mus musculus with 77 samples.

Results

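The genes of the receptors for gamma-aminobutyric acid (GABA), glycine and glutamate were followed in the retinas of mice with oxygen-induced retinopathy (OIR) and of control mice. Members were all genes whose symbol begins as those of GABA-A subunits (*Gabr*), GABA-B subunits (*Gabbr1* and *Gabbr2*), glycine receptor subunits (*Glra* and *Glrb*), ionotropic glutamate receptor subunits (*Gria*, *Grik*, *Grid* and *Grin* followed by a number) or metabotropic glutamate receptors (*Grm* followed by a number). This gave 53 of 21154 genes, with 78 probes. There were 19 GABA-A, 2 GABA-B and 5 glycine receptor genes, 4 AMPA, 5 kainate, 2 delta and 7 NMDA receptor genes and 8 metabotropic receptor genes. The remaining member encodes a protein that binds a delta receptor and is not a receptor itself. Where a gene had several probes, the brightest of them in the retina stood for it. The rule uses symbols and no measured values.

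Light signals pass through the retina by glutamate, which photoreceptors release in the dark onto bipolar cells and bipolar cells onto amacrine and ganglion cells. ON bipolar cells read it through the metabotropic receptor Grm6, whereas OFF bipolar, horizontal, amacrine and ganglion cells use AMPA, kainate and NMDA channels. Amacrine cells release GABA or glycine, which open chloride channels built from GABA-A or glycine receptor subunits, and the rho subunits Gabrr1 and Gabrr2 form the slow GABA channel of bipolar cell terminals.

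C57BL/6 pups of the OIR groups were kept in 75% oxygen from P7 until P12 and then in room air, and control pups breathed 21% oxygen throughout. Retinas were collected on P12, at the end of hyperoxia, on P17, when new vessels are growing, and on P28, after they regress. The OIR groups had 13 mice at each age, and the control groups had 12, 12 and 14, with both retinas of a mouse pooled on 1 array. Whole litters were randomized to either oxygen level and each group came from several litters. The litter of each mouse is not stated, so litter could not be fitted, and p-values treat mice of a litter as separate. No mouse was measured more than once.

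Each array compared the retina with a universal mouse reference RNA, and values are given as the log2 ratio of retina to reference. The labels assign Cy5 to the retina and Cy3 to the reference. However, the Cy3 signal of *Sag*, *Gnat1* and *Pde6b*, which are rod genes, exceeded that of Cy5 on every array by at least 2.05 on the log2 scale, and Cy3 was therefore taken as the retina channel, against the labels, for every signed value given here. The mean log2 ratio of the 6 rod markers lay between 3.58 and 6.38 on the single arrays. *Sag*, *Gnat1* and *Pde6b* are among these markers, so the sign was set by the choice of channel and is no separate check of the tissue. Between 13801 and 34328 probes per array were detected, that is, well above background in Cy3, and their number went with the day of the scan. On 32 arrays scanned on 1 of 4 days, it was 20934 to 34328, and on the 45 arrays of the other days 13801 to 24721. The former day held 2 of 13 OIR and 3 of 12 control arrays of P12, 2 of 13 and 5 of 12 of P17, and 11 of 13 and 9 of 14 of P28. The receptor genes moved with it: the mean log2 ratio of the 18 members detected on all arrays was 1.5 to 2.21 on that day and 0.594 to 1.64 on the others. Values within that day and within the others are therefore given for several of the results.

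**Figure D1:**
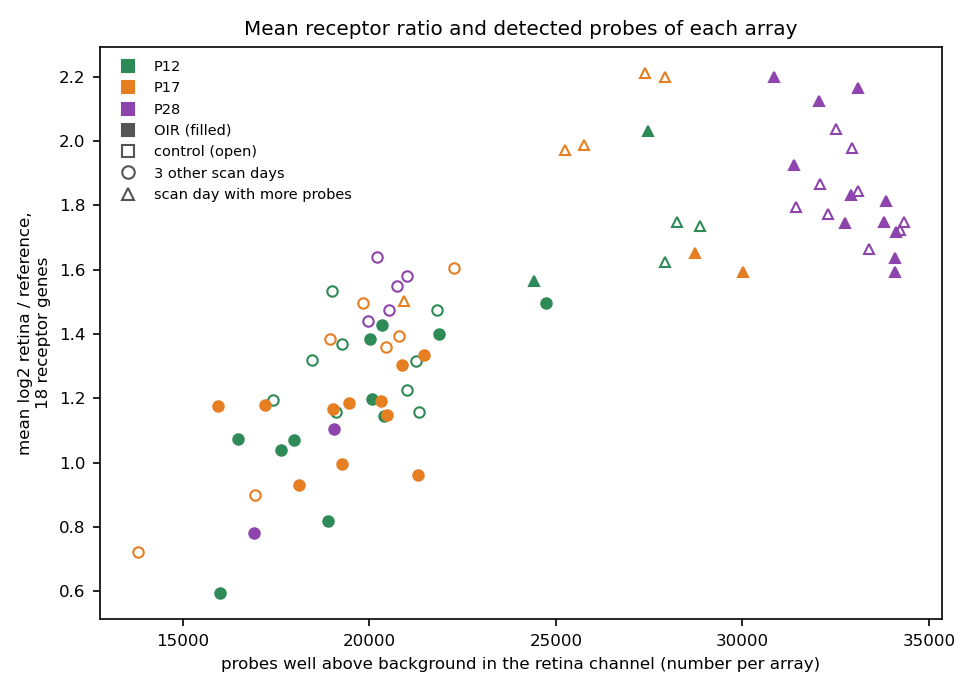
Mean log2 ratio of retina to reference over the 18 receptor genes that were above background on all 77 arrays (vertical axis), against the number of detected probes (horizontal axis). Each point is the array of 1 mouse, with color for the day, fill for OIR and shape for the scan day; arrays of the scan day with more detected probes lie between 1.5 and 2.21 and the others between 0.594 and 1.64.

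The sequences before the transcription starts of 3 members that recur in the results below are shown to give the genomic context of the measured genes. They are the 250 bases upstream of the first annotated start in RefSeq (mouse build GRCm38.p6), 5′ to 3′ on the coding strand, and capitals mark a match to TATAAA on either strand, the core of the TATA box.
Gabrb2 (chr11:42420190-42420439, plus strand): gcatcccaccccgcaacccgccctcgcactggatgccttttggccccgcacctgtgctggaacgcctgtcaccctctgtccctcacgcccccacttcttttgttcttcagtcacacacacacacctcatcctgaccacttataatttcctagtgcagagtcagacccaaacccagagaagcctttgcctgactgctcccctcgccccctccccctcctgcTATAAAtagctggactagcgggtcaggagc
Gabbr1 (chr17:37045716-37045965, plus strand): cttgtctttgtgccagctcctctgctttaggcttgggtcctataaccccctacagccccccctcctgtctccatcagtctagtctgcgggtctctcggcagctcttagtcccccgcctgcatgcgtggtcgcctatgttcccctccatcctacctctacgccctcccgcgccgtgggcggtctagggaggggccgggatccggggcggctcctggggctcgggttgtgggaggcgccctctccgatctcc
Grm6 (chr11:50850435-50850684, plus strand): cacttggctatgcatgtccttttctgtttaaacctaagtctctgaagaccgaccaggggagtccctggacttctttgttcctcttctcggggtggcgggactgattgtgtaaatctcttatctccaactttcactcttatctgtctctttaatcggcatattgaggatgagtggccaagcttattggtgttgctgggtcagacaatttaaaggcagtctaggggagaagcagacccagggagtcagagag
The window of *Gabrb2*, a beta subunit of GABA-A receptors, held 1 TATAAA on the coding strand and had 3 annotated starts in all. The windows of *Gabbr1*, the ligand-binding subunit of the GABA-B receptor, and of *Grm6*, the glutamate receptor of ON bipolar cells, held none. GC content was 58.8% for *Gabrb2*, 66.0% for *Gabbr1* and 47.6% for *Grm6*. Of the members, 37 had at least 1 window, and TATAAA was present in 11.1% of their 45 windows, compared with 12.4% of all 32851. The letters ACGTG, the core of the element bound by hypoxia-inducible factors, were found on either strand in 15.6% of member windows and 16.6% of all windows, and in none of the windows printed here. TAATCC, the letters read by the retinal factors Crx and Otx2, was present in 4.44% and 6.25%, among the members in *Gabra2* and *Gabrr2*. The annotated starts of *Gabra4* and *Gabrb1* lay 387 bases apart on opposite strands of chromosome 5.

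Of the 53 members, 18 were well above background on all 77 arrays. Among these were the GABA-A subunit genes *Gabra3*, *Gabrb2*, *Gabrd*, *Gabrr1* and *Gabrr2*, together with *Gabbr1*, *Gria4*, *Grik4*, *Grik5*, *Grin1*, *Grm2*, *Grm5*, *Grm6*, *Grm7* and *Grm8*. By contrast, *Gabre* was above background on none, *Gabrp* and *Gabrq* on 1 array each, *Gabra6* on 2 and *Glra4* on 6. No member was saturated on any array. The glycine receptor alpha subunits were close to background on the earlier days, with *Glra1* above it on 4 of 12 control arrays of P17 and 10 of 14 of P28. For such dim genes the log2 ratio stays near 0 because an offset is added to both channels, and their fold changes are understated.

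On P12, no receptor gene was differentially expressed between OIR and control retinas by limma, and 0.0615% of all genes were. At an unadjusted p under 0.05 there was 1 member, 1.89% of them, as compared with 3.24% of all genes. *Grm6* came closest. Its log2 ratio in control mice was 4.05 at the lowest, 4.43 at the median and 4.94 at the highest, and in OIR mice 2.20, 3.95 and 5.40. Values under the control median were found in 12 of 13 OIR mice, but the OIR range held the whole control range. OIR minus control was -0.59 ± 0.22 (SE; limma, unadjusted p = 0.0145, adjusted p = 0.9997), and it was below 0 on 6 of the 7 slides that held both groups, from -0.86 to 0.89. The dim alpha subunit genes *Gabra4* and *Gabra6* followed, the former with a log2 fold change of -0.06 ± 0.03. *Gabra6* was not well above background on any array of P12, and no size is given for it. *Gabrb1*, a beta subunit gene, had a log2 fold change of -0.01 ± 0.05 (adjusted p = 0.9997). Of all members, 44 had a fold change below 0, with a median of -0.04 on the log2 scale as compared with -0.0016 over all genes, but this did not hold with the slide as a factor, where 27 lay below 0 and the median was -0.00016.

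On P17, the receptor genes were lower in OIR than in control retinas in most cases, but none passed the threshold in the background-corrected ratios with all probes kept and no batch term or covariate. The log2 fold change was below 0 for 46 of the 53 members, with a median of -0.12, whereas the median of all genes was -0.0027 with 52.1% below 0. None was called in either direction, and 0.652% of all genes were called lower. At an unadjusted p under 0.05 there were 19 members, all of them lower, which is 35.8% of the members as compared with 15.9% of all genes in either direction. With the slide as a factor these shares were 30.2% and 16.5%. Within the scan days the excess was not seen. The shares were 15.1% and 14.5% on the other days, and 5.66% and 7.52% on the day with more detected probes. Among the 18 members detected on all arrays the median was -0.38, and among the 7631 genes detected on all arrays it was -0.05. In whole retinas, fewer cells that carry a receptor and less of its RNA per cell cannot be told apart.

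**Figure D2:**
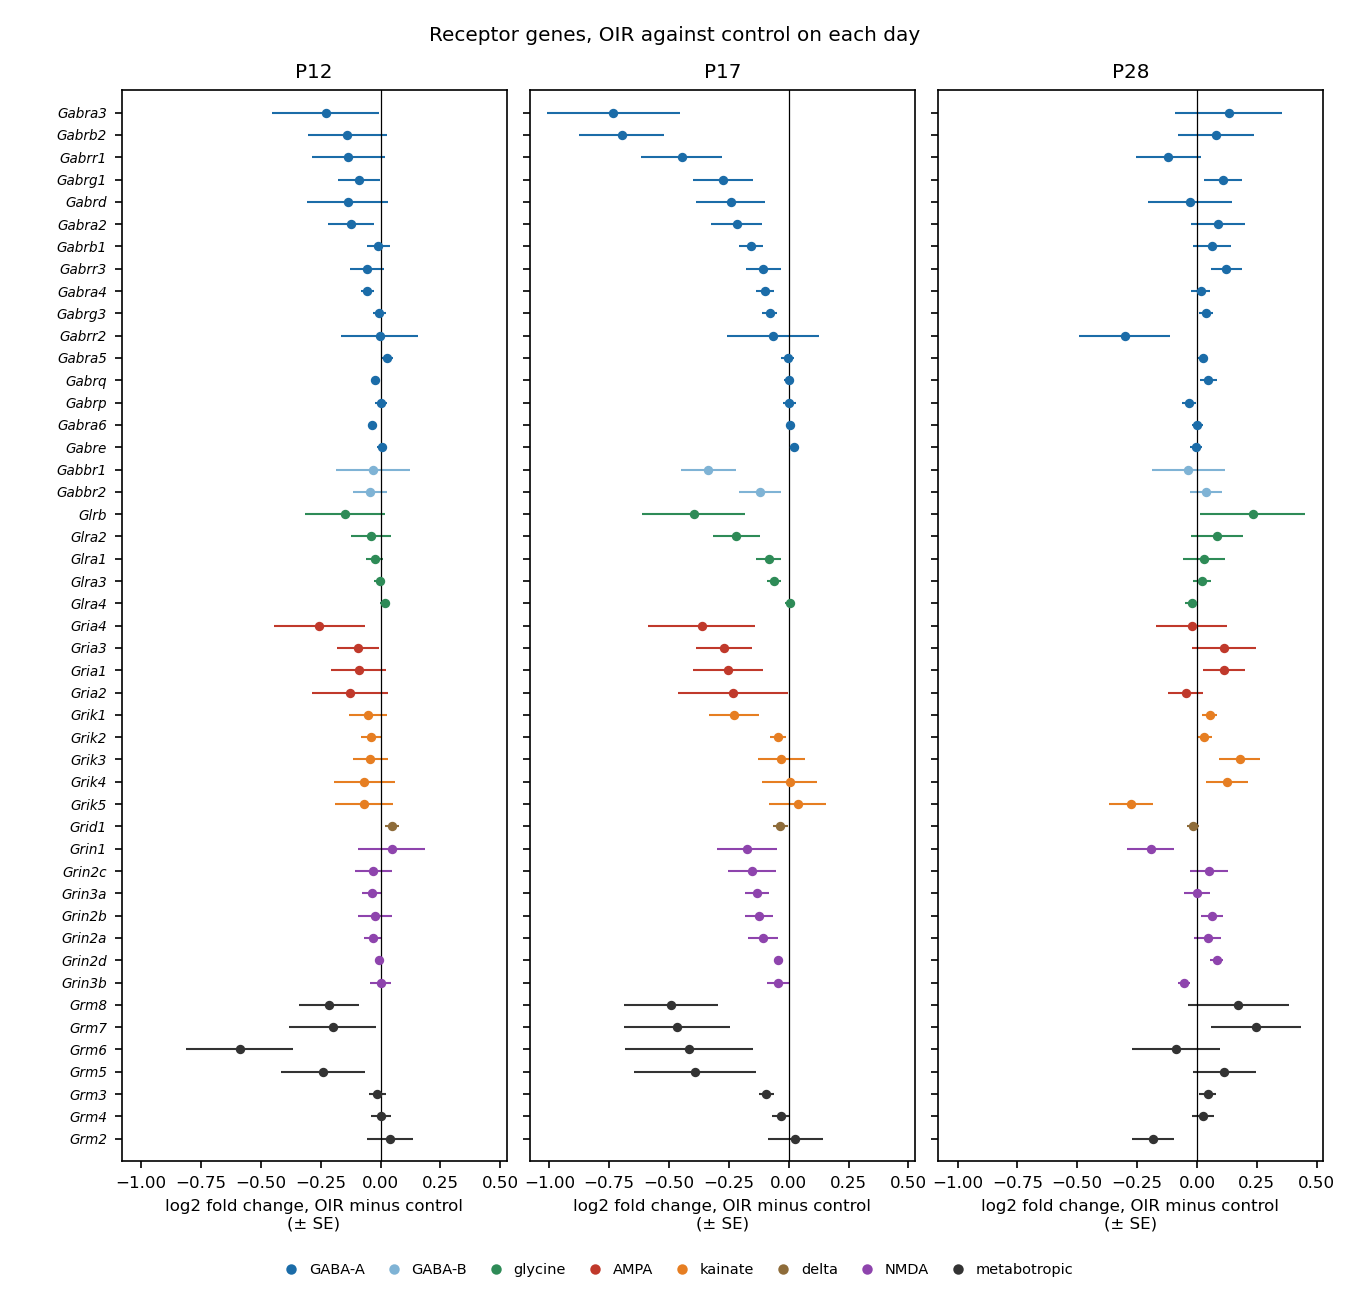
Log2 fold change of OIR minus control (horizontal axis, with SE) of 47 receptor genes on P12, P17 and P28, ordered and colored by receptor class. On P17, 40 of the 47 points lie below 0, with *Gabra3* and *Gabrb2* at the lowest values, and on P28 they lie on both sides of 0. Points of genes below background in both groups, such as *Gabra6* and *Glra4* on P12 and P17, are fitted values with no size read from them.

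The GABA-A subunit genes *Gabrb2* and *Gabra3* were among the lowest of their class on P17. The pore of most GABA-A receptors is built from alpha, beta and gamma subunits, and these genes encode a beta and an alpha subunit. *Gabrb2* had the smallest p of all members. Its log2 ratio was 0.82 at the lowest, 1.74 at the median and 2.54 at the highest in control mice, and 0.72, 1.02 and 1.77 in OIR mice. Most OIR mice, 12 of 13, had less than the control median, although the lowest control mice reached the OIR range. The log2 fold change of *Gabrb2* was -0.70 ± 0.18 (SE; 95% confidence interval -1.07 to -0.33; limma, adjusted p = 0.052). With the slide as a factor it was -0.56 and passed the threshold (adjusted p = 0.0117), and *Gabrb2* was lower on all 6 slides that held both groups, by 0.07 to 0.87. It also passed with the scan day as a factor (-0.58, adjusted p = 0.00763), without background subtraction and in the retina channel alone, but not in the ratios as deposited.

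The highest control values of *Gabrb2* came from the scan day with more detected probes, where the 5 control mice had a log2 ratio of 1.67 to 2.54 and the 2 OIR mice of 1.45 and 1.77. On the other days, 7 control mice had a median of 1.58 and 11 OIR mice of 0.997. The log2 fold change of *Gabrb2* was -0.72 on the former day and -0.425 on the others, and neither passed the threshold. *Gabra3*, an alpha subunit, had a log2 ratio of 0.93, 1.69 and 3.63 (lowest, median and highest) in control mice and of 0.63, 1.10 and 2.21 in OIR mice, and the groups overlapped. It was lower in OIR by a similar amount (-0.73 ± 0.28, adjusted p = 0.301), with -0.58 and -0.33 within the scan days. Hence the direction was the same in both sets of arrays for both genes, while the size on all arrays was larger than on the 18 arrays of the other days.

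**Figure D3:**
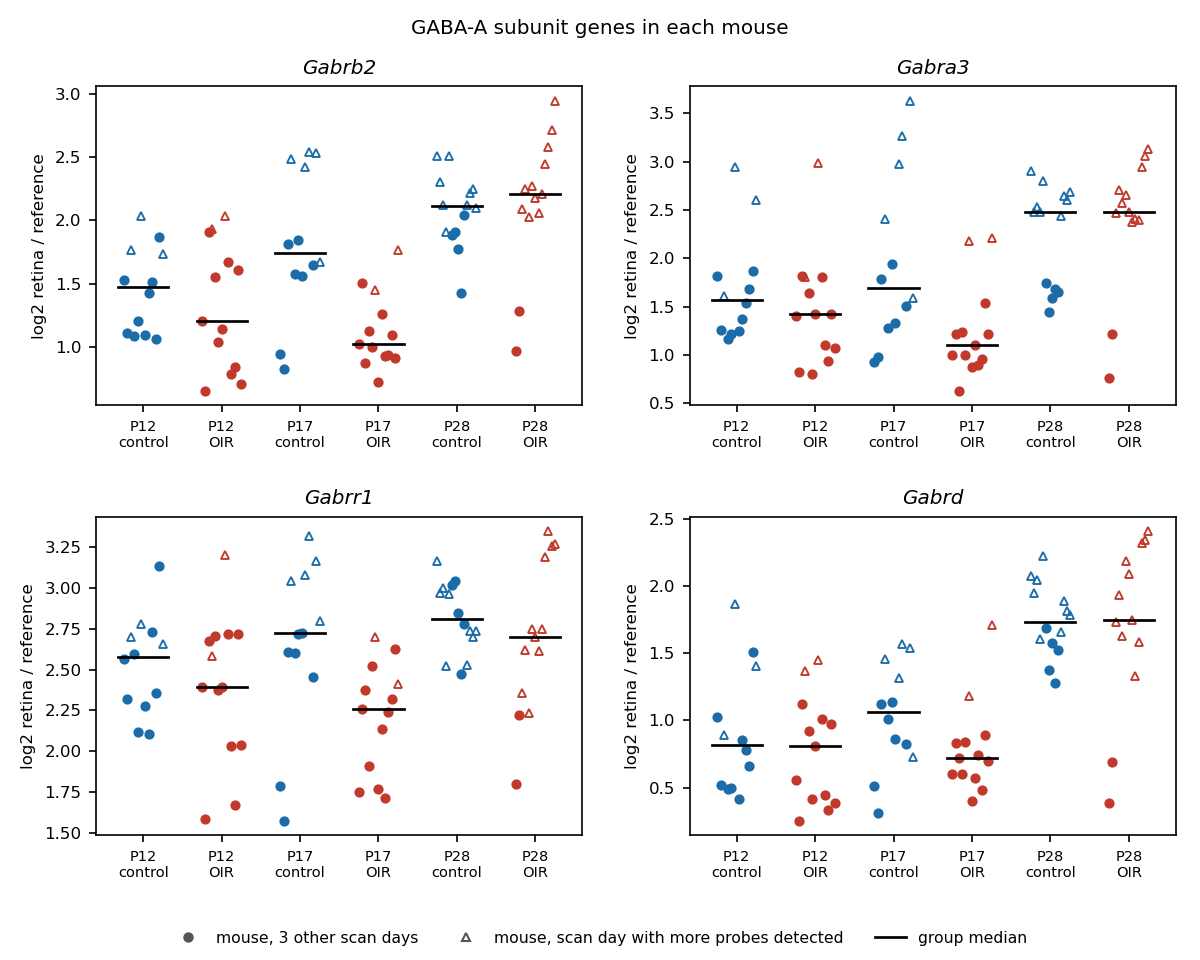
Log2 ratio of retina to reference (vertical axis) of *Gabrb2*, *Gabra3*, *Gabrr1* and *Gabrd* in each mouse of the 6 groups, with the group median as a line. Triangles are mice scanned on the day with more detected probes; on P17, they include 5 control mice and 2 OIR mice, and the OIR medians (1.02 for *Gabrb2*) lie below the control medians (1.74).

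The rho subunit gene *Gabrr1* had a log2 fold change of -0.45 ± 0.17 on P17 (adjusted p = 0.303). All 13 OIR values were under 2.72, the control median, and with the slide as a factor it passed the threshold (-0.36, adjusted p = 0.0314). Within the scan days the values of *Gabrr1* were -0.53 on the day with more detected probes and -0.21 on the others, neither of them called. This gene was singled out after its values were seen. With the slide as a factor, *Gabrb2* and *Gabrr1* were the 2 members called lower on P17, and 1.05% of all genes were. *Gabrr2*, the other rho subunit of bipolar cells, had -0.07 ± 0.19. *Gabrb1* was dim, with a log2 ratio of 0.02, 0.16 and 0.51 in control mice and -0.06, 0.04 and 0.18 in OIR mice, and was above background in 7 of 12 and 2 of 13 mice. Its log2 fold change was -0.16 ± 0.05 (adjusted p = 0.169). In the ratios as deposited, which carry no offset, *Gabrb1* fell by 1.86 on the log2 scale (adjusted p = 0.0163). Its neighbor *Gabra4* was also called lower (adjusted p = 0.0289), but was above background in only 5 of 12 control and 1 of 13 OIR mice. No other member was called there, and 1.9% of all genes were called lower. On that scale, the median of *Gabrb1* was 2.66 in control and 0.07 in OIR mice.

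Of the GABA-B receptor genes, *Gabbr1* had a log2 ratio of 0.65, 1.10 and 1.64 in control mice and of 0.51, 0.71 and 1.43 in OIR mice on P17. The groups overlapped, and 11 of 13 OIR values were under the median of the control mice. *Gabbr1* had a log2 fold change of -0.34 ± 0.11 (adjusted p = 0.220). This was -0.30 on the other scan days but 0.07 on the day with more detected probes, where 3 of the 5 control mice were on slides without OIR mice of P17. On all 6 slides that held both groups, one of them from that day, *Gabbr1* was lower in OIR, by 0.07 to 0.59. *Gabbr2*, which carries the coupling to G proteins, had -0.12 ± 0.09. Among the glycine receptor genes, 4 of 5 lay below 0, from *Glrb*, the beta subunit that binds gephyrin (-0.40 ± 0.21), and *Glra2* (-0.22 ± 0.10) to *Glra4*, which was not well above background on any array of P17.

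All 4 AMPA receptor genes had a log2 fold change below 0 on P17, between -0.36 for *Gria4* and -0.23 for *Gria2*, as had all 7 NMDA receptor genes, between -0.17 for *Grin1*, the obligatory subunit, and -0.04. Kainate receptor genes lay between -0.23 for *Grik1* and 0.04 for *Grik5*, and 3 of 5 were below 0. The delta receptor genes and the binding protein gene were all within 0.05 of 0, with *Grid1* at -0.04 ± 0.03. Of the metabotropic receptors, 7 of 8 were below 0. *Grm8* (-0.49 ± 0.20) and *Grm7* (-0.47 ± 0.22), presynaptic receptors that reduce transmitter release, were the lowest, followed by *Grm6* (-0.42 ± 0.27) and *Grm5* (-0.39 ± 0.25). *Grm2* was at 0.03 ± 0.11. Within the scan days, *Grm8* had -0.60 on the day with more detected probes and -0.14 on the others, *Gria4* had -0.32 and -0.07, and *Grin1* turned from -0.41 to 0.008. None of these passed the threshold, and on the slides that held both groups 12 members of all classes were lower on each of the 6 slides.

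Counts of members called lower on P17 depended on how the signal of the arrays was treated. None was called by limma within either set of scan days, where 41 and 42 of 53 members lay below 0 and the medians were -0.03 on the other days and -0.12 on the day with more detected probes. In the retina channel alone 9 members passed the threshold as lower, among them *Gabra3*, *Gabra4*, *Gabrb1*, *Gabrb2*, *Gabbr1*, *Glra2* and *Grik1*. This is 17% of the members as compared with 2.83% of all genes. With the number of detected probes as a covariate, there were also 9, and *Gabra3*, *Gabrb1*, *Gabrb2* and *Gabbr1* were among those called in both, while 3.88% of all genes were called lower.

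Genes that make, load and clear the transmitters were examined beside the receptors on P17. Unless another fit is named, genes called in this paragraph are from the background-corrected ratios with all probes kept and no batch term or covariate. There, 0.652% of all genes were called lower and 1.64% higher on that day. With the slide as a factor 1.05% were called lower and 2.05% higher, and in the deposited ratios 1.9% and 3.24%. The shares were 3.88% and 3.39% with the number of detected probes as a covariate. Of 11 genes of GABA and glycine handling, 2 were lower and none higher, with a median of -0.36. With the slide as a factor 3 were called lower, in the deposited ratios 2 and with the covariate 7. Without slide or covariate, 1 of the 2 was *Slc6a9*, the glycine transporter GlyT1, which fell by 0.36 ± 0.08 on the log2 scale (adjusted p = 0.0307). *Gad1*, which makes GABA, had -0.86 ± 0.25 (adjusted p = 0.111). All 10 genes of glutamate handling lay below 0 with none called, and of 31 genes of receptor scaffolds and auxiliary subunits 23 did, again with none called. With the slide as a factor 2 glutamate genes and 1 scaffold gene were called lower, and with the covariate 2 and 5. In the deposited ratios 2 scaffold genes were called lower and no glutamate gene was. In the cascade downstream of Grm6 in ON bipolar cells, 9 of 12 genes lay below 0. The only gene called there was *Rgs11*, which ends the G protein signal, and it rose by 0.57 ± 0.14 (adjusted p = 0.0342). With the slide as a factor none of the 12 was called higher and 1 lower, and in the deposited ratios none was called. With the covariate 1 was called higher and 3 lower. Of the markers of inner retinal neurons, 6 of 7 for amacrine cells, 6 of 8 for ganglion cells, 4 of 6 for bipolar cells and 2 of 5 for horizontal cells lay below 0, and *Nefl*, a neurofilament gene of ganglion cells, was the only one called (-0.77 ± 0.20, adjusted p = 0.0481). The mean log2 ratio of the amacrine list had a range of 0.723 to 2.08 in control and 0.885 to 1.53 in OIR mice, and that of the ganglion list 1.13 to 1.94 and 1.14 to 1.42. Mueller glia markers were below 0 in 4 of 5 cases with a median of -0.35, and 2 of 6 rod markers were. In the other direction, 2 of 4 astrocyte markers and 2 of 4 microglia markers were called higher. All 5 lens markers lay below 0, with 1 called. All 3 pigment epithelium markers lay below 0, 1 of them called, with a mean log2 ratio of 0.422 to 1.73 in control and 0.288 to 1.01 in OIR mice. Every amacrine cell marker was above background on at least 76 of 77 arrays and every ganglion cell marker on at least 23, while 1 of the pigment epithelium markers was above it on none. The part of these cells in the receptor values was not tested.

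On P28, no member passed the threshold between OIR and control retinas by limma, and 0.137% of all genes did. At an unadjusted p under 0.05 there were 5 members, 3 of them lower, which is 9.43% of the members as compared with 8.46% of all genes. The median log2 fold change was 0.04, and 17 of 53 members lay below 0. *Grik5*, a high-affinity kainate receptor subunit gene, had a log2 ratio of 0.72, 0.95 and 1.51 in control mice and of 0.52, 0.73 and 1.09 in OIR mice. Low values prevailed in OIR mice, 11 of 13 being under the control median, and the groups overlapped. *Grik5* had a log2 fold change of -0.27 ± 0.09 (adjusted p = 0.523), with -0.08 on the day with more detected probes and -0.61 on the others (adjusted p = 0.00855), where it was called. *Grin2d*, a dim NMDA receptor gene, had 0.08 ± 0.03 (adjusted p = 0.467), and *Grm2*, an autoreceptor of glutamate terminals, -0.18 ± 0.09 (adjusted p = 0.667). *Gabrb1* had 0.06 ± 0.08 (adjusted p = 0.806). *Gabrb2*, with the smallest p on P17, had 0.08 ± 0.16 (95% confidence interval -0.25 to 0.40). The 2 OIR mice that were scanned on the other days stood apart from the remaining 11, with a log2 ratio of *Gabrb2* of 0.964 and 1.28 as compared with 2.03 to 2.94. Among these 2 and the 5 control mice of the same days, 17 members were called lower. This is 32.1% of them as compared with 8.21% of all genes. No slide held both these OIR mice and these control mice. OIR and slide therefore cannot be told apart in that fit, also for *Grik5*. By contrast, none was called among the 11 OIR and 9 control mice of the day with more detected probes. The median fold change there was 0.02 on the log2 scale.

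The change of the OIR effect between days was tested as an interaction. From P12 to P17 no member passed the threshold by limma and 1.05% of all genes did. At an unadjusted p under 0.05 there was 1 member, 1.89% as compared with 6.88% of all genes. This was *Gabrb2*, whose OIR effect was lower on P17 by 0.56 ± 0.24 (adjusted p = 0.892). With the slide as a factor the difference was -0.60 and passed the threshold (adjusted p = 0.0328). *Grid1*, a dim gene, followed with -0.08 ± 0.04. *Gabrg3*, next by p, was not well above background on any OIR array of P12 or P17, and no size is given for it. From P17 to P28, 44 of 53 members had a difference above 0, with a median of 0.16 on the log2 scale as compared with 0.0055 over all genes. This did not hold within both sets of scan days: on the day with more detected probes 42 members had a difference above 0, with a median of 0.126, but on the others 41 had one below 0, with a median of -0.1. Both differences contain the P17 effect, and the P17 control mice also enter the comparisons of control ages below, so these results are not independent of each other. *Grin2d*, an NMDA receptor subunit that gives slow currents, was the only member called higher, which 0.0567% of all genes were. Its difference was small, at 0.13 ± 0.03 (adjusted p = 0.0298), and it was above background in 25 of 77 arrays. The log2 ratio of *Grin2d* was -0.04, 0.06 and 0.10 in control and -0.10, 0.00 and 0.07 in OIR mice of P17, and -0.09, 0.04 and 0.10 in control and 0.01, 0.11 and 0.23 in OIR mice of P28. With the slide as a factor it was not called (0.115, adjusted p = 0.0591). *Gabrb2* had the next smallest p (0.78 ± 0.24, adjusted p = 0.182), followed by *Gabrg3* (adjusted p = 0.224).

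In control retinas, no receptor gene passed the threshold of limma between P12 and P17, and 2.31% of all genes did. At an unadjusted p under 0.05 there were 5 members, 9.43% as compared with 11.3% of all genes. *Gabrb2* had a median log2 ratio of 1.47 on P12 and 1.74 on P17. Its log2 fold change was 0.37 ± 0.18 (adjusted p = 0.556), and *Gabra6*, not well above background on any array of either group, had the smallest p (adjusted p = 0.432). *Gabrr2*, singled out after its values were seen, had a median log2 ratio of 0.62 on P12 and 1.03 on P17 and a log2 fold change of 0.39 ± 0.19 (adjusted p = 0.585). It was higher on P17 on all 7 slides with both groups, by 0.36 to 0.77, and passed the threshold with the slide as a factor (0.51, adjusted p = 0.00339).

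Between P17 and P28, 10 receptor genes changed in control retinas. Of the members, 9 rose, which is 17.0% of them as compared with 11.8% of all genes, and 1 fell, which is 1.89% as compared with 7.32% of all genes. Among those that rose were the GABA-A subunit genes *Gabrd* and *Gabrb1*, together with *Gabbr1*, the glycine receptor genes *Glra1* and *Glra4*, the AMPA receptor gene *Gria3* and the metabotropic receptor gene *Grm8*, and *Grm2* fell. *Gabrd* encodes the delta subunit of receptors outside the synapse. Its log2 ratio was 0.31, 1.07 and 1.57 on P17 and 1.28, 1.74 and 2.22 on P28. Every P28 mouse was above the P17 median, although the ranges overlapped. Its log2 fold change was 0.72 ± 0.17 (adjusted p = 0.00154). *Gabrd* was the only member called within both sets of scan days, with 0.57 (adjusted p = 0.0274) on the day with more detected probes and 0.66 (adjusted p = 0.016) on the others, where 2.14% of all genes were called higher.

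*Gabbr1* rose by 0.56 ± 0.14 (adjusted p = 0.00432), with 0.58 and 0.30 within the scan days. *Glra1*, the adult alpha subunit of the glycine receptor, rose by 0.29 ± 0.06 (adjusted p = 0.000983) from a median of 0.07 to 0.47. *Grm8* rose by 0.56 ± 0.19 (adjusted p = 0.035) and was called on the other scan days too (0.43, adjusted p = 0.0455). Smaller rises were those of *Gria3* by 0.34 ± 0.12 (adjusted p = 0.0424) and *Gabrb1* by 0.21 ± 0.06 (adjusted p = 0.0151). *Glra4* was not well above background on any control array of P17 and on 3 of 14 of P28. Its fitted log2 fold change was 0.07 ± 0.02 (adjusted p = 0.034). Because most P28 arrays were also not well above background, no lower bound is given for the rise of *Glra4*. *Grm2* fell by 0.29 ± 0.10 (adjusted p = 0.0469), and all 14 mice of P28 lay below the P17 median of 0.38.

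**Figure D4:**
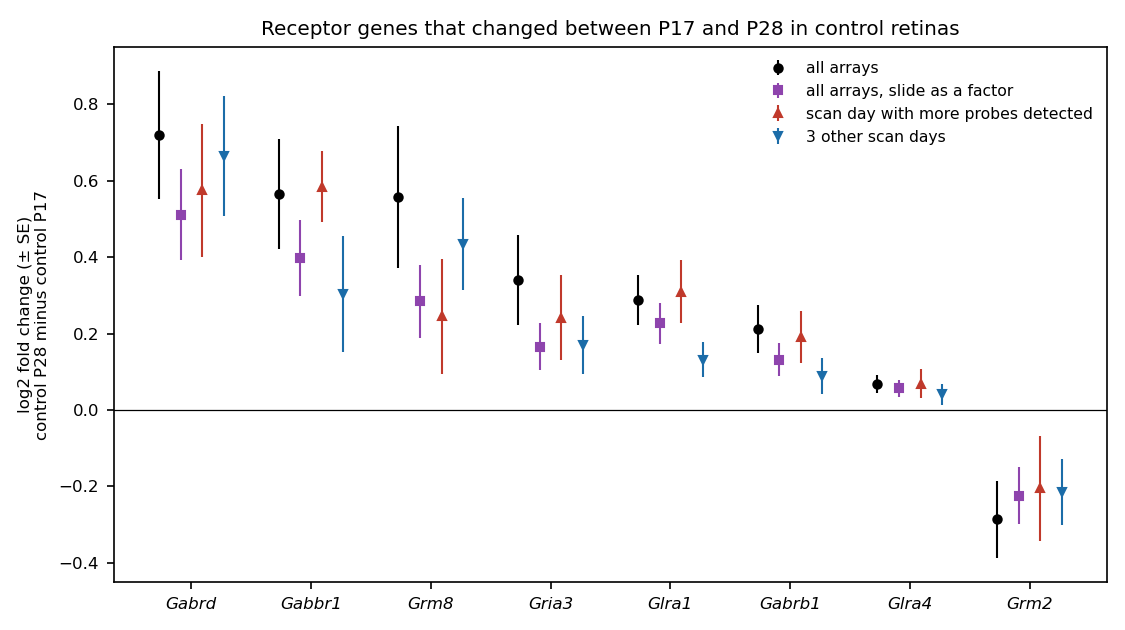
Log2 fold change of control P28 minus control P17 with SE (vertical axis) for 8 receptor genes that changed, on all arrays, with the slide as a factor, and within the 2 sets of scan days. All values have the same sign in each of these genes, and those of *Gabrd* range from 0.51 to 0.72.

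The P28 control arrays had more detected probes than those of P17, with medians of 32192.5 and 20868.5, and the counts moved with the way this was treated. With the slide as a factor 8 of the 10 genes were called again, without *Gria3* and *Glra4*, and 5 members were called lower in addition, among them *Gria4*, *Grik1*, *Grik5* and *Grin2b*. Of these, *Gria4* fell by 0.36 (adjusted p = 0.00909) and *Grik5* by 0.33 (adjusted p = 0.00194). In that fit 13.2% of the members were called higher and 11.3% lower, as compared with 11.8% and 9.13% of all genes. On the day with more detected probes alone, 4 members were called higher and 7 lower, the latter including *Gabbr2*, *Gria2*, *Gria4*, *Grik1*, *Grik5* and *Grm5*, as compared with 9.78% of all genes higher and 8.13% lower. With the number of detected probes as a covariate, none of the 10 was called and 14 other members were called lower, or 26.4%, as compared with 9.83% of all genes. That fit takes 1 slope for all groups. However, the Pearson correlation of detected probes with the mean of the 18 members detected on all arrays differed in sign. It was 0.0996 to 0.947 in the P12 and P17 groups of the other days. On the day with more detected probes it was -0.376 in control and -0.757 in OIR mice of P28. In the ratios as deposited 2 of the 10 were called again, *Glra4* among them, and 7 other members were called in addition. There, 5 members were called higher, or 9.43%, as compared with 13.4% of all genes. Another 4 members were called lower, or 7.55%, which is a smaller share than that of all genes called lower. Markers of the lens had a median log2 ratio of 0.16 on P17 and 0.704 on P28 in control mice, where single mice ranged from 0.0287 to 3.96. Pigment epithelium markers had medians of 1.18 and 0.48. The part of either tissue in the receptor values was not tested. Among genes of GABA and glycine handling, *Gad1* rose by 0.84 ± 0.26 (adjusted p = 0.0211) and *Gad2* by 0.43 ± 0.15 (adjusted p = 0.0362), and *Slc6a9* and *Slc12a2*, a chloride importer, fell. Of the 11 genes of this list, 3 were called higher and 2 lower, as compared with 11.8% and 7.32% of all genes. With the slide as a factor, 1 was called higher and 2 lower. None was called higher in the deposited ratios or with the number of detected probes as a covariate, where 3 and 2 were called lower.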

How the data were processed

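The scanner files deposited by the authors hold the median signal and background intensity of each spot, without normalization, and a value table, also deposited by the authors, gives the log2 of Cy3 over Cy5 for the scanner software's processed signals (background-subtracted and dye-normalized), since at least 99.7% of its values per array equalled that within 0.001. The array build is mm9, and no coordinates of it are given. Per the paper, GeneSpring GX was used for normalization, whose settings are not given in the sources used here, and for a moderated test with the Benjamini-Hochberg adjustment. Here, the median intensities were corrected by normexp with an offset of 50 and loess within each array in limma 3.58.1 (R 4.3.3). Outlier spots (0.592 to 0.951% per array) were dropped and the spots of a probe averaged. All 55681 non-control probes were tested by limma with the Benjamini-Hochberg adjustment, OIR against control within each day and differences between days in a model with 6 group means. An adjusted p under 0.05 was called. RefSeq accessions without versions gave a symbol to 28026 probes. For a called member with no array above background in 1 group, the fitted value was given with the number of arrays above background, and members below background in both groups got no size. The procedure was tested on simulated data.

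Named were all called members where 10 or fewer were called, otherwise the 5 largest rises and falls, the 3 smallest p-values where fewer than 3 were called, and *Gabrb1* on every day, with other members named for their place in their class. Some genes that this rule or the lists would name are not reported here by name and are kept in the counts. Members and lists were chosen with earlier results of these data known. Slide (11 slides) and scan day (4 days) come from the file headers. Mouse numbers were not shared between groups, and no pairing was used. Alternatives were the deposited ratio, no background subtraction, median centring, a filter for probes above background on at least 6 arrays of a group, slide as a factor, the retina channel alone and any probe of a gene. Scan day as a factor, the deposited ratio with slide, the number of detected probes as a covariate and fits within scan days were added after seeing the data.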

Additional observations from a re-analysis of the deposited data

Results flagged for a closer look

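The difference in the OIR effect between P17 and P28 was itself tested and passed the threshold for 1 of the 53 members, *Grin2d* (difference 0.126 on the log2 scale, limma, adjusted p = 0.0298). The OIR effect was -0.04 ± 0.02 on P17 and 0.08 ± 0.03 on P28. The gene was above background on 1 of 12 control and 1 of 13 OIR arrays of P17, and on 9 of 14 and 11 of 13 of P28. The share of arrays from the scan day with more detected probes also differed between these groups, and its part in the difference was not tested beyond the fits within scan days (0.143 and 0.0259, neither called). Groups held 12 to 14 mice, so single mice were not tested as outliers.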

How the results depend on the processing

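Under the alternatives, the named members gave 219 values with the same direction and side of the threshold, 25 that newly passed it, 57 that no longer passed and 26 with the other direction; the causes were not tested. On P17, where none was called in the background-corrected ratios with all probes kept and no batch term or covariate, 2 members were called lower in the deposited ratio, 2 without background subtraction, 1 with the dim-probe filter, 2 with slide and 2 with scan day as a factor, 6 in the deposited ratio with slide, 9 in the retina channel alone and 9 with the detected-probe covariate. In that order, the shares of all genes called lower were 1.9%, 1.35%, 1.31%, 1.05%, 1.17%, 1.42%, 2.83% and 3.88%. On P28, 17 were called lower on the other scan days, as were 8.21% of all genes. These days held 2 OIR mice of P28, on slides without control mice of that age. For the change of the OIR effect from P12 to P17, 1 was called lower with slide, 1 in the retina channel and 1 with the covariate. The shares of all genes called lower were 0.345%, 0.775% and 0.563%. From P17 to P28 the count of 1 became 0 in the deposited ratio with and without slide, without background subtraction, with median centring, slide or scan day, and within either set of scan days, but 3 in the retina channel and 2 with the covariate. Of all genes, 0.761% were called higher in the retina channel and 0.279% with the covariate. Between control P12 and P17, the count of 0 became 2 with slide, 2 with scan day, 4 in the retina channel, 4 in the deposited ratio with slide, 4 with the covariate and 1 on the other scan days. Of all genes, 2.72% were called higher and 2.75% lower with slide, and 2.35% and 2.38% with scan day. The pairs were 3.17% and 2.3% in the retina channel, and 3.33% and 3.68% in the deposited ratio with slide. They were 3.58% and 2.34% with the covariate, and 0.96% and 1.86% on the other scan days. Between control P17 and P28, the count of 10 became 42 with median centring, which moved the median of all genes by 0.5 on the log2 scale (members 0.6), 19 in the retina channel, 16 with scan day and 3 on the other scan days. With median centring 57.9% of all genes were called higher and 27.1% lower, as compared with 71.7% and 7.55% of the members. In the retina channel, 14.2% of all genes were called higher and 6.42% lower. The pairs were 12.3% and 9.89% with scan day, and 2.14% and 0.747% on the other scan days. Median centring also moved the median of all genes by 0.182 on P28 and by 0.16 for the change from P17 to P28. On the scan day with more detected probes alone, log2 values turned to 0.0735 for *Gabbr1* on P17, 0.000979 for *Gabra4* and 0.0837 for *Grm6* on P12, and 0.0033 for *Gabrg3* (change from P12 to P17). On the other scan days they turned to 0.0164 for *Gabrb1* on P12, -0.112 for *Gabrb1* and 0.1 for *Grm2* on P28, and -0.258 for *Gabrb2* (change from P17 to P28). In the deposited ratio *Gabra6* turned to 0.0388 on P12 (0.0109 with slide) and to 0.0664 between control P12 and P17 (0.134 with slide). With slide it also turned for *Gabrb1*, to 0.00977 on P12 and -0.114 on P28, and for *Grin2d*, to -0.0188 (change from P17 to P28). In the retina channel *Gabra6* was 0.0191 on P12, and on P28 *Gabrb1* was -0.0467 and *Grin2d* -0.0359. *Gabrb1* on P12 was 0.0213 with slide, 0.0132 with scan day and 0.0285 with the covariate, and *Gria3* between control P17 and P28 was -0.00725 with the covariate. With median centring, *Grik5* was 0.0745 and *Grm2* 0.146 on P28, and between control P17 and P28 *Grm2* was 0.516 and *Glra4* -0.0442. Counting any probe of a gene moved no count by over 1.5 times. Values of *Gabra6*, *Gabrg3* and *Glra4* are fitted to signals mostly below background. Members near background, such as *Gabrb1*, *Gabra4*, *Gabra6* and *Grin2d*, are limited by the signal over background. No paired analysis was possible because no mouse number was shared between groups.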
